A study of Mus musculus with 4 samples.

Results

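The TLR4 adaptors and kinase cascade are the proteins that carry the lipopolysaccharide signal from the cell surface to NF-kB, to the MAP kinases and to interferon genes. A list of 36 such genes was followed through 4 arrays of mouse bone marrow-derived macrophages, and 29 of the 36 had a probe set that carried that gene's name alone. They are 29 of 18193 genes with a named probe set. Ticam2, Irak4, Traf3, Chuk, Mapk3, Ripk1 and Ripk2 were not analysed here. The rule names the genes by their known role and uses no measured value, although the list was drawn up with earlier results of these data known.

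The 4 groups were DKO macrophages with LPS, WT macrophages with LPS, untreated DKO macrophages and untreated WT macrophages, with 1 array each. DKO cells lack both Hes1 and Hey1, which encode transcriptional repressors of the Notch pathway, WT cells are wild type, and the strain background of all was C57BL/6. All cells grew from bone marrow for 5 days with 10% serum and 10% supernatant of L929 cells, which supplies macrophage colony-stimulating factor, and LPS was given at 2 ng/ml for 3 h. The labels used here do not say how the alleles were deleted or whether mice were pooled. The study asked which inflammatory genes Hes1 and Hey1 regulate in macrophages.

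With 1 array a group nothing could be tested and no error is given: each difference compares 2 arrays, and higher or lower here means a difference in intensity of at least 2-fold, while smaller differences are given as values. Intensities are the authors' linear values, and values under 52.9 units, the median of all probe sets, count as the floor. All 29 genes were above it on all 4 arrays by their brightest probe set, which stands for the gene. For each comparison the share of all measured genes called the same way is given as the background. A difference in RNA from these bulk cultures cannot tell more RNA per cell from more cells that make it.

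Median intensity over all probe sets was 50.8 to 51.0 on 3 arrays and 59.1 on the untreated WT array. Dim probe sets read brighter there than on the others, by a median log2 of 0.24 under the floor and 0.015 at 500 units or more. All 8 macrophage markers were above the floor on every array, with sums of 99970 and 95112 units in DKO and WT cells with LPS and 92553 and 74310 in untreated DKO and WT cells. The defining markers of T cells, of B cells and of fibroblasts each summed to at most 133 units on any array, with 11 of the 12 under the floor on all arrays. Of 7 neutrophil markers 6 were under the floor throughout, the exception being S100a8, and of 6 dendritic cell markers 5 were, the exception being Itgax. Of 5 genes listed as progenitor markers Kit, Cd34 and Spi1 were above the floor on every array, though Spi1 is not particular to progenitors. Cd34 read 229 in DKO and 552 in WT cells with LPS, and 361 in untreated DKO and 876 in untreated WT cells. The part of this difference in the results was not tested. Hes1 read 5.80 units in DKO and 26.7 in WT cells with LPS, and 2.14 in untreated DKO and 45.4 in untreated WT cells, all under the floor. Hey1 read 10.2 in DKO and 17.3 in WT cells with LPS, and 9.17 in untreated DKO and 57.2 in untreated WT cells. Signals this near the floor check the genotype labels only weakly, and where the probes lie relative to the deletions is not known here.

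TLR4 binds LPS together with MD-2 after CD14 has handed it over. The adaptor pair TIRAP and MyD88 then assembles IRAK kinases and TRAF6, which activate the kinase TAK1, the IKK complex of NF-kB and the MAP kinases, while a second adaptor pair, TRAM and TRIF, signals from endosomes through TRAF3, TBK1 and IKK-epsilon to interferon genes. In macrophages the same pathway also induces some of its own parts, among them the inhibitor IRAK-M.

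With LPS, 8 of the 29 genes were higher than without it, and they were the same 8 in DKO and WT cells: Cd14, Myd88, Irak2, Irak3, Traf2, Ikbke, Map3k8 and Mapkapk2. That is 27.6% of the measured genes in DKO cells, where 4.66% of 11241 genes were higher, and 27.6% in WT cells, where 3.36% of 11491 were. The share of all genes higher in both genotypes was not counted, so the full overlap is not shown to be a trait of this list. Lower with LPS was Map2k6 in DKO cells, 1 of 29 or 3.45%, against 4.77% of all genes. In WT cells 0 of 29 were lower, against 3.41%. The median LPS effect of the 29 genes was a log2 difference of 0.21 in DKO cells, beside -0.10 over all genes, and 0.29 in WT cells, beside -0.086.

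**Figure D1:**
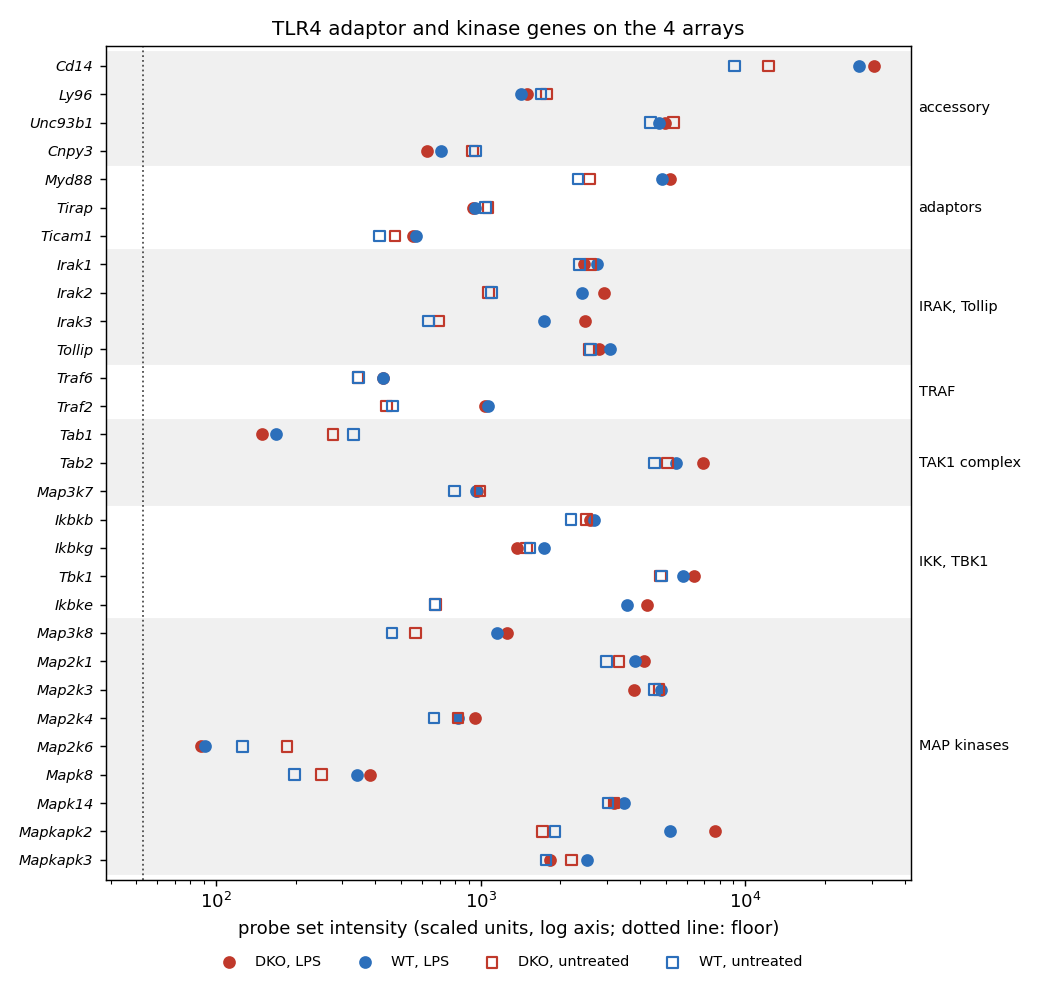
Intensity of the 29 measured genes on each array, on a log axis, with filled circles for LPS and open squares for untreated cells, red for DKO and blue for WT. In the 8 genes called with LPS both circles lie to the right of both squares, and the highest pair belongs to Cd14 at 30625 and 26767 units; since probe sets differ in brightness, only values of 1 gene compare with each other.

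The promoters of 3 of these 8 genes are shown because they hold letters of the NF-kB motif or an E box, a motif that Hes and Hey repressors bind. The windows run from 250 bases before to 50 after the start in RefSeq, build GRCm38.p6, on the gene's strand, and capitals mark the matches. Myd88 lies at chr9:119339969-119340268 (minus strand), Traf2 at chr2:25546891-25547190 (minus strand) and the 1 of 2 Irak3 starts with an E box at chr10:120201548-120201847 (minus strand).
Myd88: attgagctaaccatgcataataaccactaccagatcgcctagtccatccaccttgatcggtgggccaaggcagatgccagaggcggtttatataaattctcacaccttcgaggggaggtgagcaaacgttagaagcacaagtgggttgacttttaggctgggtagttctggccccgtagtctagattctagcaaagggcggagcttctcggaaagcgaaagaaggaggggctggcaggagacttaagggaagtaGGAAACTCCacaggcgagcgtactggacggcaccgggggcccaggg
Traf2: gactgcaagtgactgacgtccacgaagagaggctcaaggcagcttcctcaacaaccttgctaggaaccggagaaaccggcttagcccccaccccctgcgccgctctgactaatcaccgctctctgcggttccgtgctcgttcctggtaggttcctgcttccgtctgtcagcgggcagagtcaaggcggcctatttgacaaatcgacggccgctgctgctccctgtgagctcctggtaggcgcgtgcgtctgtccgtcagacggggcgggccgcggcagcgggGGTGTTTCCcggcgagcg
Irak3: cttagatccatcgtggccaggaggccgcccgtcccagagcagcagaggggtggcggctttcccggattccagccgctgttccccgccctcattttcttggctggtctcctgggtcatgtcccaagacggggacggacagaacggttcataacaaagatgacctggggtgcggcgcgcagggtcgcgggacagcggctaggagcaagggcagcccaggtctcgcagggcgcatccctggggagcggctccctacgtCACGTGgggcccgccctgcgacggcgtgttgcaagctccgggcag

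Of the 29 genes 23 had a promoter in that table, with 36 starts in all, and 6 of the 8 called genes had 7. The letters GGNNTTTCC, most of the kappa B site of NF-kB, were searched on both strands. They were in the promoters of Myd88, with the first base at position 5 from the start, and Traf2, at position 33, so 2 of the 6 called genes (33.3%) held them. Among the 17 other genes of the list 1 held them (5.88%), Map3k7, and over 27025 genes 6.62% did. The full site was not searched, so a match need not complete it, and the difference in shares was not tested. Ikbke, Mapkapk2, Irak2 and Irak3 did not hold these letters in the window.

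The E box CACGTG was in the promoters of 5 of the 23 genes (21.7%, against 8.09% of all genes, or 13.9% against 7.15% counted per promoter): Irak3, Mapkapk3, Tbk1, Cnpy3 and Ticam1. The related class C site was searched as CACGNG, which includes every E box. It was in 12 of 23 (52.2%, against 30.3%, or 36.1% against 27.5% per promoter), namely in 2 of the 6 called genes and 10 of the 17 others. In Irak3, Cnpy3 and Ticam1 the E box was the only such match, so the counts of both sites overlap. The N box CACNAG was also in 12 (52.2%, against 46.1%, or 44.4% against 42.5% per promoter). Shares per gene grow with the number of starts, of which the 23 genes have 36 and all 27025 genes 32851. Such matches in a 300-base window are a description and not binding sites.

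At the receptor, Cd14 encodes the LPS-binding co-receptor. It read 30625 units in DKO and 26767 in WT cells with LPS, against 12234 in untreated DKO and 9103 in untreated WT cells, which is 2.50-fold higher with LPS in DKO and 2.94-fold in WT cells. Both LPS arrays lay above both untreated arrays, and DKO lay above WT in each pair.

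Ly96, which encodes the LPS-binding partner MD-2 of TLR4, read 1491 in DKO and 1416 in WT cells with LPS, against 1771 in untreated DKO and 1693 in untreated WT cells. Its log2 LPS effects were -0.25 in DKO and -0.26 in WT cells. Tlr4 itself, outside the list, read 1969 in DKO and 1838 in WT cells with LPS, against 2517 in untreated DKO and 2427 in untreated WT cells, short of 2-fold.

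Both chaperones of Toll-like receptors stayed short of 2-fold. Unc93b1, which escorts the nucleic acid-sensing receptors to endosomes, had LPS effects of -0.11 in DKO and 0.11 in WT cells. Cnpy3, a chaperone for the folding of several receptors, read 627 in DKO and 706 in WT cells with LPS, against 933 in untreated DKO and 956 in untreated WT cells. Both LPS arrays lay below both untreated arrays, by log2 effects of -0.57 in DKO and -0.44 in WT cells.

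Of 3 adaptors measured, 1 was higher with LPS. Myd88, the adaptor shared by most Toll-like receptors, read 5191 in DKO and 4858 in WT cells with LPS, against 2576 in untreated DKO and 2330.1 in untreated WT cells. Its LPS effects of 2.02-fold in DKO and 2.09-fold in WT cells lie just past the threshold, and after quantile normalization the DKO value was 0.98 on the log2 scale and no longer past it.

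Tirap, the bridging adaptor that brings MyD88 to TLR4, had log2 LPS effects of -0.19 in DKO and -0.13 in WT cells, and its second probe set gave -0.24 in DKO and -0.38 in WT cells. Ticam1 encodes TRIF, the adaptor of the interferon branch. It read 554 in DKO and 571 in WT cells with LPS, against 475 in untreated DKO and 415 in untreated WT cells, with log2 effects of 0.22 in DKO and 0.46 in WT cells.

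The IRAK family split by member. Irak2, whose product prolongs NF-kB signalling, read 2931 in DKO and 2419 in WT cells with LPS, against 1071 in untreated DKO and 1100.2 in untreated WT cells, or 2.74-fold higher in DKO and 2.20-fold in WT cells. Irak3 encodes IRAK-M, an inhibitor of the same complex, and read 2487 in DKO and 1734 in WT cells with LPS, against 697 in untreated DKO and 636 in untreated WT cells. It was 3.57-fold higher with LPS in DKO and 2.73-fold in WT cells, and in both genes the DKO array with LPS was the brightest of the 4.

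The second probe set of Irak3 read the same pattern at lower brightness, 402 in DKO and 304 in WT cells with LPS, against 137 in untreated DKO and 143 in untreated WT cells. Its log2 LPS effects were 1.55 in DKO and 1.09 in WT cells. Irak2 and Irak3, which act in opposite directions in the pathway, were both past 2-fold in both genotypes.

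Irak1, a kinase early in the complex, read 2449 in DKO and 2756 in WT cells with LPS, against 2602 in untreated DKO and 2365 in untreated WT cells, with log2 effects of -0.09 in DKO and 0.22 in WT cells. Its 4 probe sets gave LPS effects in DKO cells from -0.91 to 0.97, the widest range for this effect among the 15 genes with several probe sets above the floor. Tollip encodes a protein that restrains the IRAK complex, and its LPS effects were 0.12 in DKO and 0.25 in WT cells.

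Of the 2 TRAF genes measured, Traf2 was higher and Traf6 was not past 2-fold. Traf2, a ubiquitin ligase adaptor best known from TNF receptors, read 1038 in DKO and 1070.3 in WT cells with LPS, against 441 in untreated DKO and 464.5 in untreated WT cells, or 2.36-fold higher in DKO and 2.30-fold in WT cells. Traf6, the ligase downstream of MyD88, read 427.5 in DKO and 429.5 in WT cells with LPS, against 344 in untreated DKO and 346 in untreated WT cells. For both genes the DKO and WT values of a treatment lay close together, and LPS separated the arrays.

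Transcripts of the TAK1 complex did not pass 2-fold in any direction. Map3k7, the gene of the kinase TAK1, had log2 LPS effects of -0.04 in DKO and 0.26 in WT cells. Tab2, which ties TAK1 to ubiquitin chains, read 6925 in DKO and 5457 in WT cells with LPS, against 5076 in untreated DKO and 4536 in untreated WT cells. Tab1, an activating subunit, read 149 in DKO and 168 in WT cells with LPS, against 277 in untreated DKO and 331 in untreated WT cells. This was 1.86-fold lower with LPS in DKO and 1.97-fold in WT cells, just short of the threshold, and both LPS arrays lay below both untreated arrays.

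Among the IKK and TBK1 kinases, Ikbke had the largest LPS effect of all 29 genes. It encodes IKK-epsilon, a kinase of the interferon branch, and read 4235 in DKO and 3570 in WT cells with LPS, against 676 in untreated DKO and 671 in untreated WT cells. That is 6.27-fold higher in DKO and 5.32-fold in WT cells, with nearly equal untreated values. Its close relative Tbk1 read 6386 in DKO and 5798 in WT cells with LPS, against 4774 in untreated DKO and 4813 in untreated WT cells, with log2 effects of 0.42 in DKO and 0.27 in WT cells.

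The measured subunits of the classical IKK complex, Ikbkb and Ikbkg, were within 2-fold of their untreated values by their brightest probe sets. Chuk, the gene of another catalytic subunit, was not analysed. Ikbkb, the catalytic subunit IKK-beta, had log2 LPS effects of 0.04 in DKO and 0.29 in WT cells. A dimmer probe set of Ikbkb gave 1.10 in DKO and 0.36 in WT cells. Ikbkg, the scaffold subunit NEMO, had -0.13 in DKO and 0.18 in WT cells by the brightest of 6 probe sets. A dimmer one read 834 in DKO and 683 in WT cells with LPS, against 378 in untreated DKO and 824 in untreated WT cells, with effects of 1.14 in DKO and -0.27 in WT cells. When the probe sets of each gene were summarised by their median instead, Ikbkb joined the genes past 2-fold in DKO cells, which were then 9, and not those in WT cells.

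In the MAP kinase cascade 2 of 9 genes were higher with LPS in both genotypes, and Map2k6 was lower in DKO cells. Map3k8 encodes TPL2, the kinase that activates the ERK branch in macrophages, and read 1263 in DKO and 1157 in WT cells with LPS, against 567 in untreated DKO and 463 in untreated WT cells, or 2.23-fold higher in DKO and 2.50-fold in WT cells. Its substrate gene Map2k1 had log2 LPS effects of 0.32 in DKO and 0.36 in WT cells.

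Mapkapk2 encodes the p38-activated kinase MK2, which stabilises cytokine mRNAs. It read 7673 in DKO and 5170.3 in WT cells with LPS, against 1715 in untreated DKO and 1907 in untreated WT cells, or 4.47-fold higher in DKO and 2.71-fold in WT cells. DKO cells read above WT with LPS, and below WT without it by a log2 difference of -0.15, which turned to 0.06 with equal array medians.

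Its paralog Mapkapk3, the gene of MK3, read 1821 in DKO and 2517 in WT cells with LPS, against 2207 in untreated DKO and 1763 in untreated WT cells. The log2 LPS effects were -0.28 in DKO and 0.51 in WT cells, opposite in sign. The second probe set gave 1565 in DKO and 2115 in WT cells with LPS, against 1948 in untreated DKO and 1860.3 in untreated WT cells, with effects of -0.32 in DKO and 0.19 in WT cells. With LPS the DKO value was the higher one for Mapkapk2 and the lower one for Mapkapk3, short of 2-fold in both.

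Map2k3 and Map2k6 encode the kinases that activate p38, and Mapk14 encodes p38-alpha itself. Map2k6 was the dimmest gene of the list, at 88.2 in DKO and 91.0 in WT cells with LPS, against 185 in untreated DKO and 126 in untreated WT cells. Its log2 LPS effects were -1.07 in DKO and -0.47 in WT cells. The DKO value was -0.14 with a floor at the 65th percentile and short of 2-fold after quantile normalization. Map2k3 had LPS effects of -0.31 in DKO and 0.08 in WT cells, and Mapk14 had -0.001 in DKO and 0.20 in WT cells.

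In the JNK branch Map2k4, a kinase that activates JNK, had LPS effects of 0.21 in DKO and 0.31 in WT cells. Mapk8, the gene of JNK1, read 381 in DKO and 340.2 in WT cells with LPS, against 251 in untreated DKO and 198 in untreated WT cells. Its effects of 1.52-fold in DKO and 1.72-fold in WT cells fell short of the threshold, and in WT cells its 3 other probe sets above the floor went the other way, from -0.70 to -0.14.

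**Figure D2:**
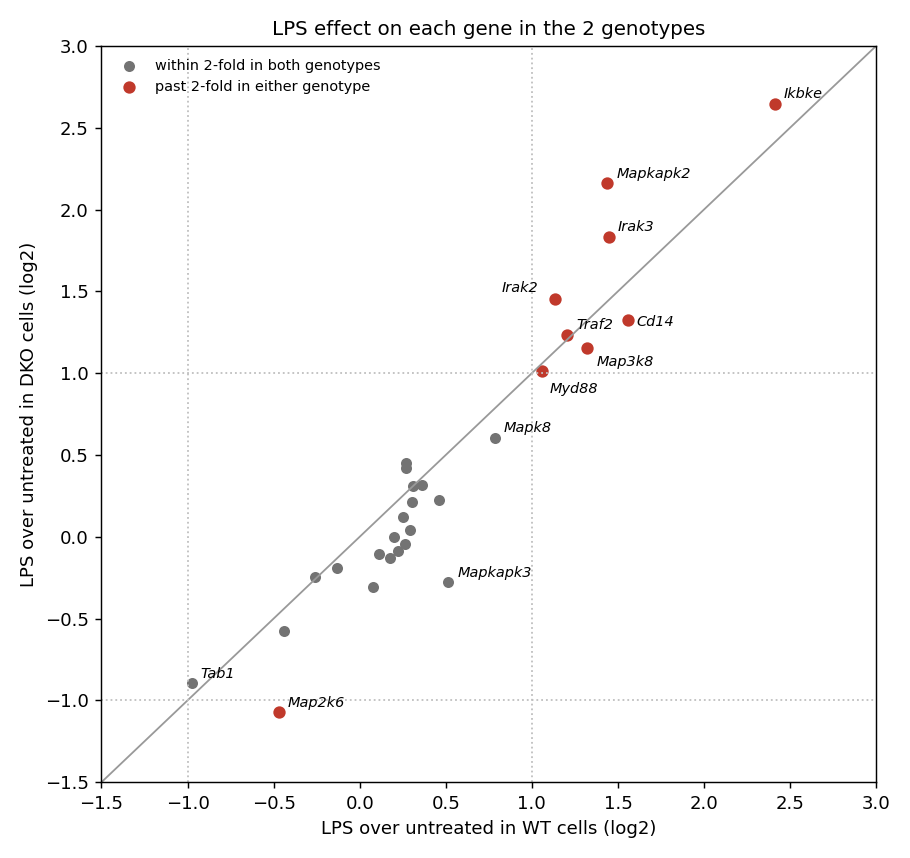
LPS effect of each gene in DKO cells (y axis) and WT cells (x axis), both as log2 of LPS over untreated; the diagonal marks equal effects and dotted lines mark 2-fold. Of the 29 genes, 8 lie past 2-fold on both axes, from Myd88 at 1.01 in DKO and 1.06 in WT cells to Ikbke at 2.65 in DKO and 2.41 in WT cells, and Mapkapk2 lies above and Mapkapk3 below the diagonal.

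Across the 29 genes the LPS effects in DKO and WT cells, which share no array, correlated closely (Pearson's r 0.95, Spearman's rho 0.91). Over 9982 genes above the floor on all arrays these values were 0.84 and 0.70, and genes are not independent points. The list holds a larger share of genes past 2-fold, and a wider spread by itself can raise r. The values thus do not show closer agreement for the list. The sign of the LPS effect was the same in both genotypes for 22 of the 29 genes, a share not counted over all genes. Among the 20 genes within 2-fold in both genotypes, effects ran from -0.90 to 0.61 in DKO cells and from -0.98 to 0.78 in WT cells, and 15 of the 20, counted in each genotype separately, were within 1.3-fold.

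By its brightest probe set no gene of the list passed 2-fold between DKO and WT cells. Dimmer probe sets of Ikbkg did without LPS, at log2 -1.55 and -1.12. With LPS, 0 of 29 were higher and 0 lower, against 0.845% and 0.934% of 11236 genes. Without LPS, 0 of 29 were higher and 0 lower, against 0.466% and 0.984% of 11380 genes. Shares this small leave little room for a call in a list of 29. At 1.5-fold the counts were again 0, against 4.03% higher and 5.03% lower over all genes with LPS and 2.36% and 4.96% without it. The count for untreated cells depended on the scaling: with equal array medians Cd14 (0.64) and Map2k6 (0.77) were past 1.5-fold higher, and after quantile normalization Map2k6 was (0.67).

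The largest genotype differences of the list with LPS were those of Mapkapk2 (1.48-fold higher in DKO cells, log2 0.57), Irak3 (1.43-fold higher, log2 0.52) and Mapkapk3 (log2 -0.47). Without LPS they were those of Map2k6 (1.47-fold higher, log2 0.55), which is dim, and Cd14 (1.34-fold higher, log2 0.43). The median difference of the list was 0.016 with LPS, beside -0.040 over all genes, and 0.13 without LPS, beside -0.017. Setting the array medians equal gave 0.34 for the list and 0.19 for all genes without LPS.

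Of the 8 genes called with LPS, 7 read brighter in DKO than in WT cells under LPS, with Traf2 (log2 -0.04) the exception, by log2 differences of at most 0.57. Over the whole list 15 of 29 did (51.7%), and over all genes 43.4%. The 8 genes were called from these same LPS arrays, while these shares are of genes not chosen by their LPS effect. The share among all genes higher with LPS was not counted. Genotype differences with and without LPS had the same sign in 18 of the 29 genes, a share not counted over all genes. Across the 29 genes the r was 0.025 and the rho 0.13, beside 0.32 and 0.25 over 9982 genes. For scale, the LPS and genotype differences read by the 2 brightest probe sets of a gene lay a median of 0.18 to 0.26 apart over 4698 genes, which describes agreement within arrays and not between cultures.

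**Figure D3:**
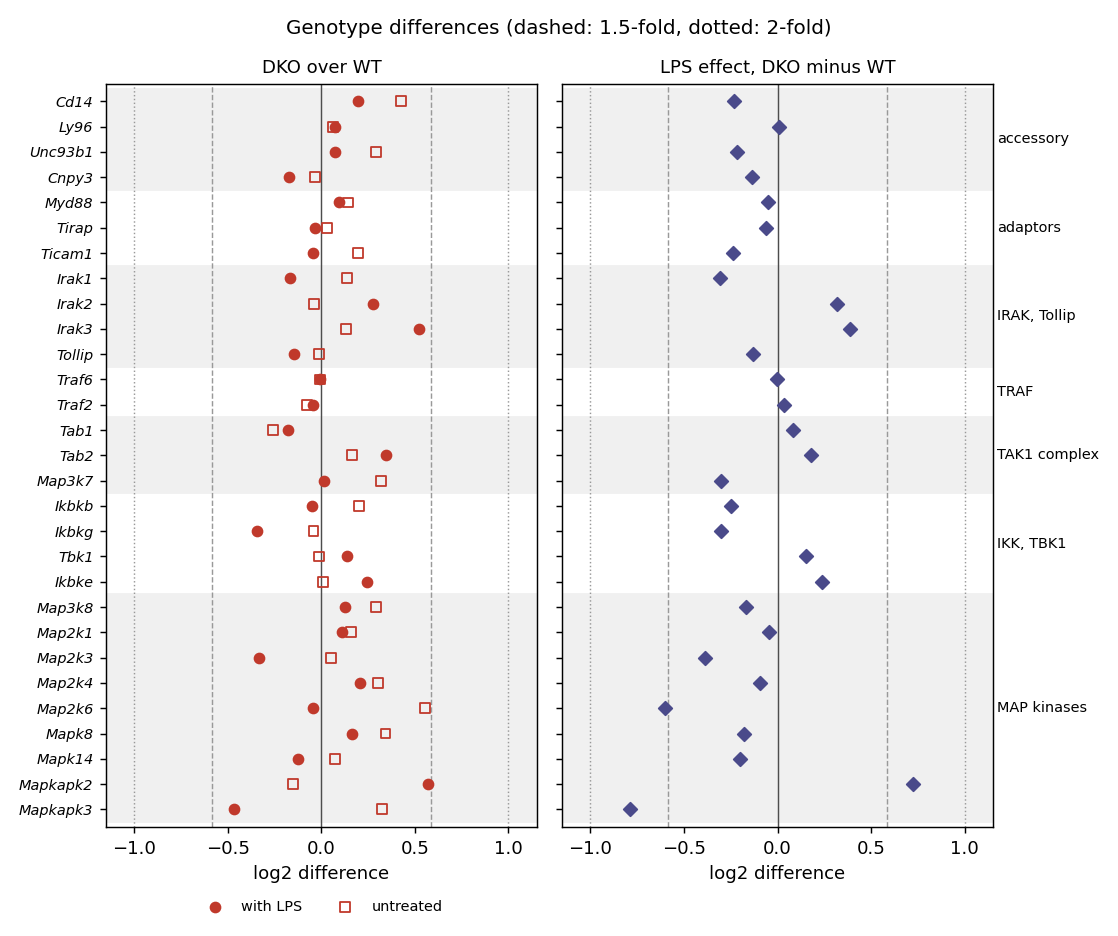
Left, log2 of DKO over WT for each gene, with filled circles for LPS and open squares for untreated cells; right, the LPS effect in DKO minus that in WT cells. In the left panel all points lie inside the dashed 1.5-fold lines, the outermost being Mapkapk2 with LPS at 0.57, and in the right panel Mapkapk2 (0.72), Map2k6 (-0.60) and Mapkapk3 (-0.79) lie outside them.

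The difference of the LPS effects, DKO minus WT, asks whether the response to LPS depended on genotype. By brightest probe sets 0 of 29 genes were higher and 0 lower at 2-fold in this difference, against 1.31% and 0.721% of 9982 genes. At 1.5-fold 1 was higher, Mapkapk2, and 2 were lower, Mapkapk3 and Map2k6, that is 3.45% and 6.90%, against 5.22% and 4.41% of all genes. The LPS fold of Mapkapk2 was 1.65 times as large in DKO as in WT cells, and that of Mapkapk3 was 1.73 times as large in WT as in DKO cells. With equal array medians 1 gene, Mapkapk3, was past 2-fold lower, and at 1.5-fold 0 were higher and 3 lower, Map2k3 joining, against 2.59% and 11.9% of all genes.

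Irak3 (log2 0.39) and Irak2 (0.32) followed Mapkapk2 among genes with a larger LPS effect in DKO cells. With equal array medians Mapkapk2 had 0.51, Irak3 0.18 and Irak2 0.11. Of the 8 called genes 5 had the larger effect in DKO cells and 3 in WT cells, namely Cd14, Myd88 and Map3k8. Traf2, at 0.03 the smallest of the 5, changed sides with equal array medians. The list median was -0.13, beside -0.047 over all genes. Each of these values rests on all 4 arrays, with untreated WT cells, the array with the brighter dim probe sets, among them.

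Agreement between probe sets varied by gene. The 29 genes had 68 probe sets, 59 of them above the floor on all arrays, and 15 genes had at least 2 such probe sets. The LPS effects of all probe sets of a gene had the same sign for 10 of these 15 genes in DKO cells and for 7 in WT cells. For DKO against WT cells this held for 7 of 15 with LPS and 2 of 15 without it.

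Irak3, Tbk1, Tab2, Mapkapk3, Tirap and Tollip had LPS effects of the same sign by both their probe sets in each genotype. Traf6 did not in DKO cells, and Ikbkb, Map2k3, Map2k4 and Mapk8 did not in WT cells. Ikbkg, Irak1, Map3k7 and Mapk14 did in neither. The 6 probe sets of Ikbkg gave DKO over WT values without LPS from -1.55 to 0.08, the lowest from a probe set at 185 in untreated DKO and 541 in untreated WT cells. A second one of Ikbkg read 378 in untreated DKO and 824 in untreated WT cells, while the brightest read 1492 in untreated DKO and 1536 in untreated WT cells. For Irak1 one probe set of 4 read 457 in untreated DKO and 874 in untreated WT cells, while the brightest read 2602 in untreated DKO and 2365 in untreated WT cells. Single probe sets of Ikbkg and Irak1 were thus past or near 2-fold lower in untreated DKO cells where the brightest was not.

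**Figure D4:**
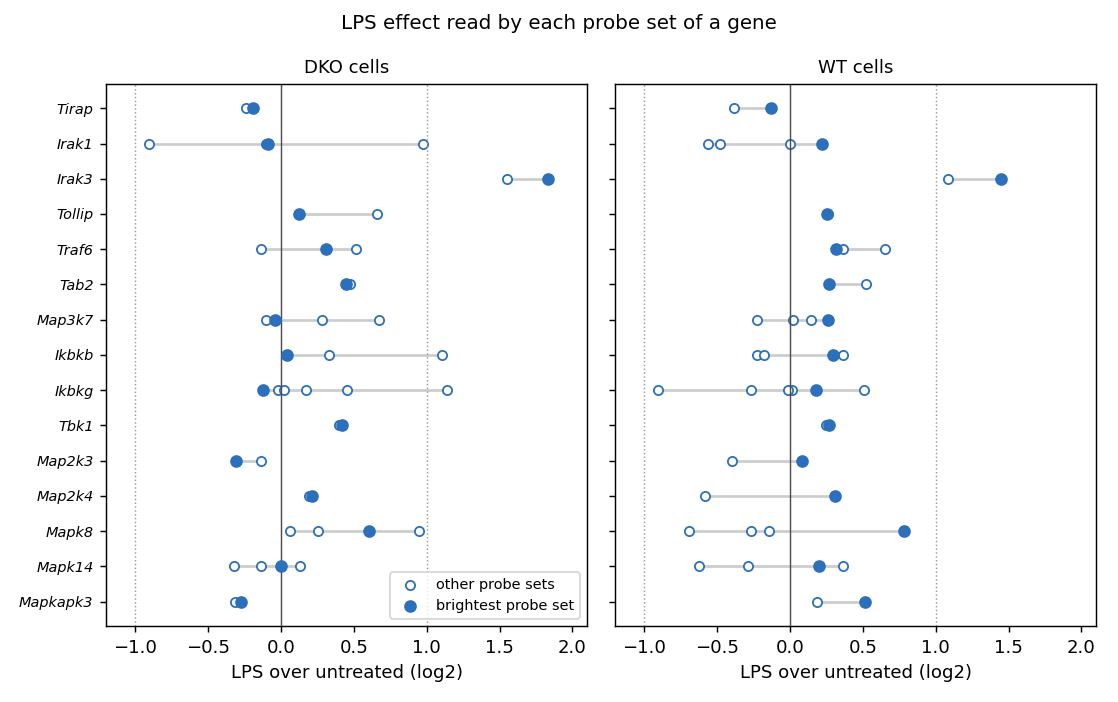
Log2 of LPS over untreated for every probe set that exceeded the floor throughout, in DKO cells (left) and WT cells (right), for the 15 genes with at least 2; filled points are the brightest probe set and dotted lines mark 2-fold. Both points of Irak3 lie beyond 2-fold in both panels, while the points of Irak1 spread from -0.91 to 0.97 in DKO cells.

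Of 50 other genes of the pathway 45 had a named probe set and 42 were above the floor in each comparison of 2 arrays. With LPS 4 of 42 were higher and 3 lower in DKO cells, and 1 was higher and 1 lower in WT cells, against the backgrounds given above. Traf1, an anti-apoptotic TRAF and NF-kB target, read 2834 in DKO and 2222 in WT cells with LPS, against 140 in untreated DKO and 170.4 in untreated WT cells, or 20.3-fold higher in DKO and 13.0-fold in WT cells. Map3k1, a kinase upstream of JNK, was lower in both, by log2 effects of -1.36 in DKO and -1.63 in WT cells.

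Past 2-fold in DKO cells were also Tank, a scaffold of TBK1 (log2 1.72, and 0.42 in WT cells), the ubiquitin ligase gene Peli1 (1.41, and 0.86 in WT cells, while its second probe set gave 1.08 and was past 2-fold in WT cells too, at 1.06) and the tyrosine kinase gene Syk (1.19, and 0.91 in WT cells). Lower there were Mknk2, a kinase of the translation factor eIF4E (-1.51, and -0.95 in WT cells), and Map3k14, the NF-kB-inducing kinase gene (-1.05, and -0.69 in WT cells). The second probe set of Mknk2 gave -0.74 and that of Map3k14 -0.02 in DKO cells, both short of 2-fold.

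Ly86 encodes MD-1, which resembles MD-2 and pairs with the receptor homologue CD180. It read 7303 in untreated DKO and 3317 in untreated WT cells, 2.20-fold higher, and 5815 in DKO against 3386 in WT cells with LPS, 1.72-fold higher. It was the 1 gene of 42 past 2-fold between untreated genotypes, against 0.466% of all genes higher and 0.984% lower. With LPS 0 of 42 were past 2-fold, against 0.845% and 0.934%. Tank read 464 in untreated DKO and 920.3 in untreated WT cells. The difference of its LPS effects was the 1 of 40 past 2-fold, against 1.31% of all genes higher and 0.721% lower. The second probe set of Tank, under the floor without LPS, gave 0.33.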

How the data were processed

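RNA was measured on 1 Affymetrix mouse array for each of 4 groups, given by the sample titles. The deposited table holds 1 linear intensity per probe set and array for 45101 probe sets. From the values, the authors had scaled each array to the same mean of 500 after trimming 2% at either end. The labels used here name no tool, and this scaling does not equalise dim probe sets.

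The 64 control probe sets, 932 with several genes and 9160 unnamed ones were left out, leaving 34945. Symbols of the platform annotation were updated through Entrez identifiers with RefSeq (GRCm38.p6), which also gave the promoters. The brightest probe set by mean stood for a gene. Values were floored at the median of all probe sets, 52.9 units, and log2 differences of 2 arrays were counted at 2-fold. A gene entered a comparison when above the floor on at least 1 of its arrays, or on all 4 for the difference of LPS effects. Nothing was tested, and the number of arrays limits the precision. The counting was tested on simulated data with changes well past 2-fold in bright probe sets. That does not cover changes near 2-fold or dim genes.

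All 29 measured members are named, and of 50 pathway partners those past 2-fold. The members and lists were chosen with earlier results of these data known. Alternatives were equal array medians, quantile normalization, floors at the 35th and 65th percentile, an offset of 16 units without a floor, the median or second brightest probe set, dropping shared probe sets, and 1.5-fold or 3-fold in place of 2-fold. Python 3.11.15, numpy 2.4.6, pandas 2.3.3 and scipy 1.17.1 were used. Sequences of proteins were not used here.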

Additional observations from a re-analysis of the deposited data

Results flagged for a closer look

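In 7 of the 29 genes the LPS effect was positive in 1 genotype and negative in the other, with 1 array behind each value, and the difference was not tested. The share of such genes over all genes was not counted, so the 7 are not shown to be a trait of this list. The difference of the LPS effects, DKO minus WT on the log2 scale, was -0.79 for Mapkapk3, -0.39 for Map2k3, -0.31 for Irak1, -0.30 for Map3k7, -0.30 for Ikbkg, -0.22 for Unc93b1 and -0.20 for Mapk14. In all 7 the effect was negative in DKO and positive in WT cells. The set of genes depended on values near 0 and on the scaling. By their brightest probe sets Irak1, Ikbkg, Mapkapk3 and Unc93b1 had opposite signs under all 3 scalings tried. With equal array medians Mapk14 (0.005 in DKO cells) was no longer opposite and Tirap was, at -0.18 in DKO and 0.09 in WT cells. After quantile normalization Map3k7 (0.02 in DKO cells) and Map2k3 (-0.0035 in WT cells) were no longer opposite, which left 5. The second probe set of Mapkapk3 gave -0.50 with the same signs. The second probe set gave 0.27 for Map2k3, 0.12 for Map3k7 and 0.41 for Mapk14, opposite to the brightest. That of Irak1 had negative LPS effects in both genotypes, -0.91 in DKO and -0.56 in WT cells. For scale, the median gap between the 2 brightest probe sets of a gene was 0.27 for this difference over 4698 genes. The probe sets of Ikbkg ran from -0.49 to 1.41 and those of Irak1 from -0.35 to 1.46.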

How the results depend on the processing

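In WT cells the 8 LPS-called genes were past 2-fold under all 7 settings other than the fold thresholds and the second brightest probe set. Of these 8 only Irak3 has a second probe set. For the others the median of probe sets and dropping shared probe sets could not change a value. Nor could the alternative floors, since the lowest value of the 8 was 441 units (Traf2, untreated DKO), above the higher floor of 168. For these genes only equal array medians, quantile normalization and the offset could have moved a call. In DKO cells Myd88 was 0.98 after quantile normalization, leaving 7, and with probe sets summarised by their median Ikbkb was gained at 1.10, making 9. By the second brightest probe set, available for 16 genes, 1 was higher in each genotype, Irak3, and 0 were lower in DKO cells. The single lower gene in DKO cells, Map2k6, was also lost (0) after quantile normalization (-0.94), with an offset of 16 units (-0.95) and with the floor at the 65th percentile (-0.14), where all but 1 of its values lie under the floor. Its value thus stayed close to -1.07 in all but the last. At 1.5-fold 2 genes were lower in DKO cells and 1 in WT cells, and for the difference of LPS effects 1 was higher and 2 lower. At 3-fold 3 were higher and 0 lower in DKO cells, and 1 was higher in WT cells. With array medians set equal, 1 gene, Mapkapk3, passed 2-fold lower in the difference of LPS effects, where the median of all genes moved to -0.26, and the list median for untreated DKO against WT cells was 0.34. By the second brightest probe set list medians were -0.11 for LPS in WT cells, -0.084 for untreated DKO against WT and 0.15 for the difference of LPS effects. No value past 2-fold changed sign under any alternative. A list median was counted as unmoved within the median gap between the 2 brightest probe sets. Counts at 1.5-fold under the other scalings were added after seeing the data: 2 genes were higher in untreated DKO than WT cells with equal medians and 1 after quantile normalization, against 0. No paired analysis was possible because each group has 1 array. Signal over background limits Map2k6, the dimmest gene of the list. The second brightest probe set covers fewer genes by construction, and the cause of the other shifts was not tested.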

Other observations

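Ikbke and Mapkapk2, the genes with the largest LPS effects of the list in DKO cells, are near neighbours on chromosome 1, with promoter windows 182 kb apart in GRCm38.p6. This was noticed after their values were seen. The 3 protein-coding genes between them in RefSeq were not higher with LPS. Dyrk3, a kinase gene, read 74.2 in DKO and 152 in WT cells with LPS, against 217 in untreated DKO and 176 in untreated WT cells. Eif2d, which encodes a translation initiation factor, had log2 LPS effects of -0.03 in DKO and -0.34 in WT cells. Rassf5, a Ras effector gene, had -0.90 in DKO and -0.53 in WT cells. Both kinase genes were thus higher with LPS, while the intensities of the genes between them lay at or below the untreated ones.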
